A study of Homo sapiens with 12 samples.

Results

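Levels were examined for 9 genes of secreted matrix proteins and of the proteases and inhibitors that act on them: THBS1, COL12A1, ADAMTS1, ADAMTS15, TNC, BGN, MATN4, PLAU and TIMP1. They were chosen by name from the 61860 genes counted, some of them because their levels shifted strongly or in opposite directions with the 2 siRNAs studied. The values of each siRNA group against its controls therefore helped to choose them, and are given below as a description without a test. All 9 were listed in both count tables. RNA was sequenced from 22RV1, an established human prostate cancer cell line, in a study that, by its title, asks how phosphorylated RB acts on ETS1, an ETS transcription factor, and on the response to CDK4/6 inhibitors. Its 12 libraries fall into 4 groups of 3: cells with siRNA knockdown of ETS1, the controls of that knockdown, cells with siRNA knockdown of ZNF783, a zinc finger gene, and the controls of that second knockdown. All cells were grown in RPMI-1640 medium with serum. The labels do not describe the siRNA sequences, the time of harvest or what the controls received. Nor do they say that replicates came from separate cultures, so a p-value reflects the spread among these libraries alone, which may be technical.

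The matrix outside cells is built from collagens, proteoglycans and glycoproteins, and secreted proteases cut it and release what it binds. THBS1 (thrombospondin 1) and TNC (tenascin C) are matricellular proteins, which signal to cells more than they bear load. COL12A1 encodes the chain of collagen XII, which associates with collagen fibrils. BGN (biglycan) is a small leucine-rich proteoglycan, and MATN4 (matrilin 4) is a filament-forming adaptor protein. ADAMTS1 and ADAMTS15 are secreted metalloproteases that cut large proteoglycans such as versican. PLAU is urokinase, the serine protease that activates plasminogen, and TIMP1 is a secreted inhibitor of matrix metalloproteases. ETS factors bind DNA at sites around a GGAA core, and several matrix and protease genes, PLAU among them, are textbook ETS targets.

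Because one of the siRNAs is directed at an ETS factor, the sequence just upstream of 4 of the genes is shown with the letters of that core marked. These 4 were lower in all ZNF783 siRNA libraries, and 3 of them (THBS1, TNC and BGN) were higher in all ETS1 siRNA libraries. ADAMTS1, MATN4 and TIMP1, whose sequences are not shown, were also lower in all ZNF783 siRNA libraries. Of all genes tested, 21.6% were lower in all ZNF783 siRNA libraries and 17.6% higher in all ETS1 siRNA libraries. Such shifts helped to choose some of the members, so nothing about the sequences is read from them. RefSeq promoter entries on GRCh38.p14 were matched by symbol for 7 of the 9 genes; ADAMTS1 and ADAMTS15 had none. The stretches run 5′ to 3′ on the strand of the gene and stop before its first exon in GENCODE release 29; capitals mark GGAA or its reverse complement TTCC. They lie at chr15:39580829-39581078 on the plus strand (THBS1), chr6:75206054-75206303 on the minus strand (COL12A1), chr9:115118258-115118407 on the minus strand (TNC) and chrX:153494730-153494938 on the plus strand (BGN).
THBS1: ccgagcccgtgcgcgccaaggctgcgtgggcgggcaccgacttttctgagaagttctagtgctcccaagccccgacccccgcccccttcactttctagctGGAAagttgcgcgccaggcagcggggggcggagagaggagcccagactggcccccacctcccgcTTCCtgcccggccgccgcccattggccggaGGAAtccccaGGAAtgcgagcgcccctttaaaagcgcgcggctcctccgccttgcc
COL12A1: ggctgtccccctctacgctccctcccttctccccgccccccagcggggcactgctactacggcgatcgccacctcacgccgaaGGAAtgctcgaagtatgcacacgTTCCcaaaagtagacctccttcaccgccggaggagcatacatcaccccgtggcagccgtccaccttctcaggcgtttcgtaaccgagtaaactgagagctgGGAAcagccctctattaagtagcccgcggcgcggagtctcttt
TNC: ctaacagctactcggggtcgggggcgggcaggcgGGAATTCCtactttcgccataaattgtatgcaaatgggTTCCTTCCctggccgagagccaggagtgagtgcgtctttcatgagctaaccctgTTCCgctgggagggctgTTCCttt
BGN: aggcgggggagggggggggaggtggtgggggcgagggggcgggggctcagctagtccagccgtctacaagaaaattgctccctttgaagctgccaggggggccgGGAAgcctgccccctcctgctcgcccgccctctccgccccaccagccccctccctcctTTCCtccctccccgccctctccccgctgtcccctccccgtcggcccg

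Counted on both strands, the full window of 250 bases before the RefSeq start held 4 matches to GGAA at THBS1, 3 at COL12A1, 8 at TNC, 2 at BGN and 4 at TIMP1. MATN4 and PLAU had 2 entries each, with 4 and 4 matches at MATN4 and 3 and 4 at PLAU. The core is short, and 92.7% of all 35116 promoter entries held at least 1. The longer ETS site CCGGAAGT, which contains the core, occurred in 3.42% of entries and in none of the windows of the 7 genes. The AP-1 site TGANTCA occurred in 6.57% of entries and in none of theirs. The TEAD site GGAATG, which overlaps the GGAA core, was found in 11.9% of entries, with 1 match at THBS1 and 1 at COL12A1. The GC box GGGCGG, found in 42.6% of entries, had 4 matches at THBS1, 1 at COL12A1, 1 at TNC, 5 at BGN and 2 at TIMP1. In the 2 entries each of MATN4 and PLAU it had 0 and 0 matches and 0 and 3 matches. A match describes the letters and not a bound site.

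The libraries held 13518177 to 48996691 counts. ETS1 siRNA replicate 1 stood apart from its replicates: its counts differed from theirs with a chi-square per degree of freedom of 40.3 and 38.9, against 1.36 to 2.93 for every other pair of replicates, so results with ETS1 siRNA are given with and without it. ETS1 itself had 0 to 3 counts in every library of both experiments, at or under the floor of 3 counts taken here for an undetected gene, and its knockdown cannot be read from these counts. ZNF783 fell from 34.1 ± 0.927 to 27.2 ± 0.615 CPM (SD, n = 3 each), a log2 fold change of -0.31 (SE 0.055, edgeR adjusted p = 2.46e-05). CPM are counts per 1000000 counts of the library, scaled by the trimmed mean of M values over the 12 libraries. The luminal epithelial keratins KRT8 and KRT18 were abundant, with group means of 477 to 636 CPM and 197 to 232 CPM. Fold changes followed the GC content of the genes, with a Spearman correlation across 10367 genes of -0.65 with ETS1 siRNA and -0.54 with ZNF783 siRNA, and the members' transcripts range from 45.9% GC (ADAMTS1) to 64.7% (MATN4).

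Per kilobase of exon, the 3 most abundant members were TIMP1, ADAMTS1 and THBS1, in that order in all 4 groups. In the ETS1 controls they stood at 17.6 ± 0.454, 15.2 ± 0.142 and 9.43 ± 0.259 CPM per kilobase (SD, n = 3). In the ZNF783 controls the same genes stood at 27.4 ± 0.951, 17.9 ± 0.464 and 14.3 ± 0.421 CPM per kilobase. The libraries of neighbours among these 3 overlapped in the ETS1 siRNA group and in no other group. TNC came next in every group, at 1.09 ± 0.0374 CPM per kilobase in the ETS1 controls and 1.92 ± 0.152 in the ZNF783 controls. COL12A1, at 1.01 ± 0.0486 in the ETS1 controls, was not separated from TNC there. BGN and MATN4 followed at 0.462 ± 0.0679 and 0.545 ± 0.111 CPM per kilobase in the ETS1 controls, where their libraries overlapped. ADAMTS15, at 0.0580 ± 0.0235, and PLAU, at 0.0106 ± 0.00189, were at the bottom.

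**Figure D1:**
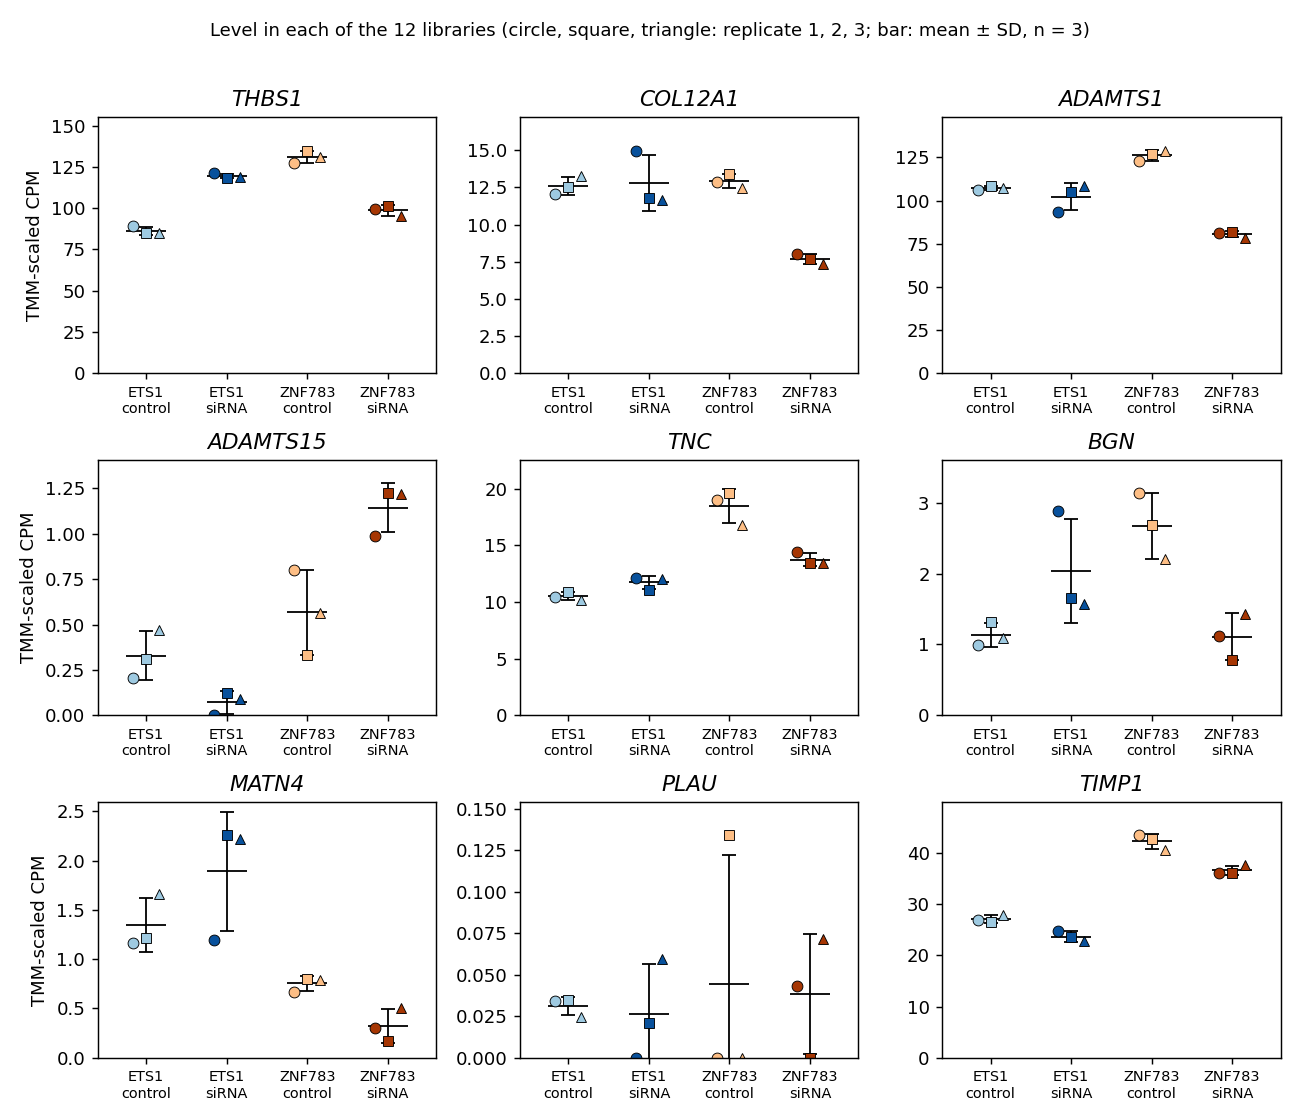
TMM-scaled CPM (vertical axis, from 0, a separate scale for each gene) of the 9 genes in the 12 libraries, by group; markers are libraries, the bar is the mean and its error the SD of 3 libraries. THBS1, TNC and BGN lie higher with ETS1 siRNA and lower with ZNF783 siRNA than in their controls, and PLAU has at most 2 counts in any library.

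THBS1 was the clearest case of opposite shifts among the abundant genes. Its level was 121, 118 and 119 CPM in ETS1 siRNA replicates 1 to 3 and 89.1, 84.8 and 85.2 CPM in their controls. In the second experiment it was 99.8, 101 and 95.0 CPM with ZNF783 siRNA and 127, 135 and 131 CPM in the controls. The siRNA and control libraries did not overlap in either experiment: all 3 ETS1 siRNA libraries were high and all 3 ZNF783 siRNA libraries were low. The fitted level was 138% of the controls with ETS1 siRNA (log2 0.47, SE 0.051) and 76.0% with ZNF783 siRNA (log2 -0.40, SE 0.034). Leaving out ETS1 siRNA replicate 1 gave a log2 value of 0.45 (SE 0.033), so the value was nearly as large without that library. THBS1 shares 448 exon bases with FSIP1 on the opposite strand, a gene with 15 to 80 counts per library against 1326 to 5719 for THBS1.

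TNC followed the same directions with smaller steps. It measured 12.2, 11.0 and 11.99 CPM with ETS1 siRNA against 10.5, 10.9 and 10.2 CPM in the controls, and 14.4, 13.4 and 13.4 CPM with ZNF783 siRNA against 19.0, 19.6 and 16.8 CPM. The groups did not overlap in either experiment, although with ETS1 siRNA the gap between the lowest siRNA library and the highest control was narrow. The fitted log2 fold change was 0.15 (SE 0.081) with ETS1 siRNA, 0.12 (SE 0.076) without replicate 1 of that group, and -0.41 (SE 0.077) with ZNF783 siRNA.

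COL12A1 was lower in all ZNF783 siRNA libraries and had no common direction with ETS1 siRNA. Its level was 8.002, 7.68 and 7.31 CPM with that siRNA and 12.9, 13.4 and 12.5 CPM in the controls, 60.2% of the control level (log2 -0.73, SE 0.093). With ETS1 siRNA it was 14.99, 11.8 and 11.7 CPM against 12.04, 12.5 and 13.2 CPM, so that replicate 1 lay above all controls and the other two below them. The log2 fold change there was 0.01 (SE 0.11) over all libraries and -0.11 (SE 0.073) without replicate 1.

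BGN, of low abundance, showed larger relative steps in the directions seen for THBS1. It had 2.88, 1.66 and 1.57 CPM with ETS1 siRNA and 0.992, 1.32 and 1.09 CPM in the controls. With ZNF783 siRNA it had 1.12, 0.779 and 1.43 CPM, and 3.14, 2.68 and 2.20 CPM in those controls. These values rest on 14 to 80 counts per library. All 3 ETS1 siRNA libraries were above, and all 3 ZNF783 siRNA libraries below, every control library of their experiment. The fitted log2 fold changes were 0.79 (SE 0.27) with ETS1 siRNA and -1.27 (SE 0.23) with ZNF783 siRNA, the latter 41.6% of the control level. ETS1 siRNA replicate 1 held the highest value of its group, and without it the log2 value was 0.51 (SE 0.19), a move of more than 1.5 times.

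MATN4 was lower with ZNF783 siRNA, at 0.301, 0.167 and 0.502 CPM against 0.667, 0.803 and 0.790 CPM. These are 3 to 7 counts per siRNA library and 10 to 14 per control library, and the groups did not overlap (log2 -1.26, SE 0.41). With ETS1 siRNA it was 1.20, 2.26 and 2.22 CPM against 1.16, 1.21 and 1.66 CPM. Replicate 1 lay among the controls and the other siRNA libraries above them; the log2 fold change was 0.52 (SE 0.26) with it and 0.70 (SE 0.17) without it. MATN4 shares 77 exon bases with RBPJL on the opposite strand, whose counts ran from 31 to 80 in the libraries of the ETS1 experiment and from 1 to 14 in those of the ZNF783 experiment, close to the counts of MATN4 itself. Strand was not used in the counting, so reads on the shared stretch cannot be assigned to either gene, and the MATN4 values are uncertain to that extent.

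The ADAMTS proteases did not move alike. ADAMTS1 had 80.9, 81.9 and 78.4 CPM with ZNF783 siRNA against 123, 127 and 129 CPM in the controls, with no overlap and 64.2% of the control level (log2 -0.64, SE 0.034). With ETS1 siRNA it had 93.3, 105 and 108 CPM against 106, 108 and 107.2 CPM, and the groups overlapped (log2 -0.07, SE 0.069; without replicate 1, -0.02, SE 0.033). ADAMTS15 was the only member lower in all ETS1 siRNA libraries and higher in all ZNF783 siRNA libraries than in their controls. Its counts were 0, 6 and 3 with ETS1 siRNA and 6, 9 and 19 in the controls, and 23, 22 and 17 with ZNF783 siRNA and 12, 5 and 10 in those controls. On the CPM scale these are 0, 0.124 and 0.0888 against 0.205, 0.312 and 0.470, and 0.989, 1.22 and 1.22 against 0.801, 0.335 and 0.564. The fitted log2 fold change was 0.99 (SE 0.32) with ZNF783 siRNA. In the ETS1 experiment the gene did not pass the expression filter with all libraries; without replicate 1 it passed, at -1.63 (SE 0.52).

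PLAU, the urokinase gene, was at or under the floor throughout. It had 0 to 2 counts in each of the 12 libraries, where 3 counts correspond to 0.0612 to 0.222 CPM, so that a difference was not detectable at this depth and no fold is given. TIMP1, in contrast, was the most abundant member per length. It measured 24.7, 23.6 and 22.7 CPM with ETS1 siRNA against 26.9, 26.5 and 27.8 CPM, and 36.1, 36.1 and 37.6 CPM with ZNF783 siRNA against 43.4, 42.7 and 40.6 CPM. It was lower in every siRNA library than in any control of its experiment, at 87.2% of the controls in both (log2 -0.20, SE 0.065 with ETS1 siRNA and -0.20, SE 0.050 with ZNF783 siRNA). After a correction for GC content and transcript length the log2 values were -0.04 with ETS1 siRNA and -0.14 with ZNF783 siRNA, each a move larger than the SD of the replicates. Without ETS1 siRNA replicate 1 the value with ETS1 siRNA was -0.23 (SE 0.052). It was -0.17 (SE 0.047) without that library and with the correction, an alternative chosen after seeing the data.

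**Figure D2:**
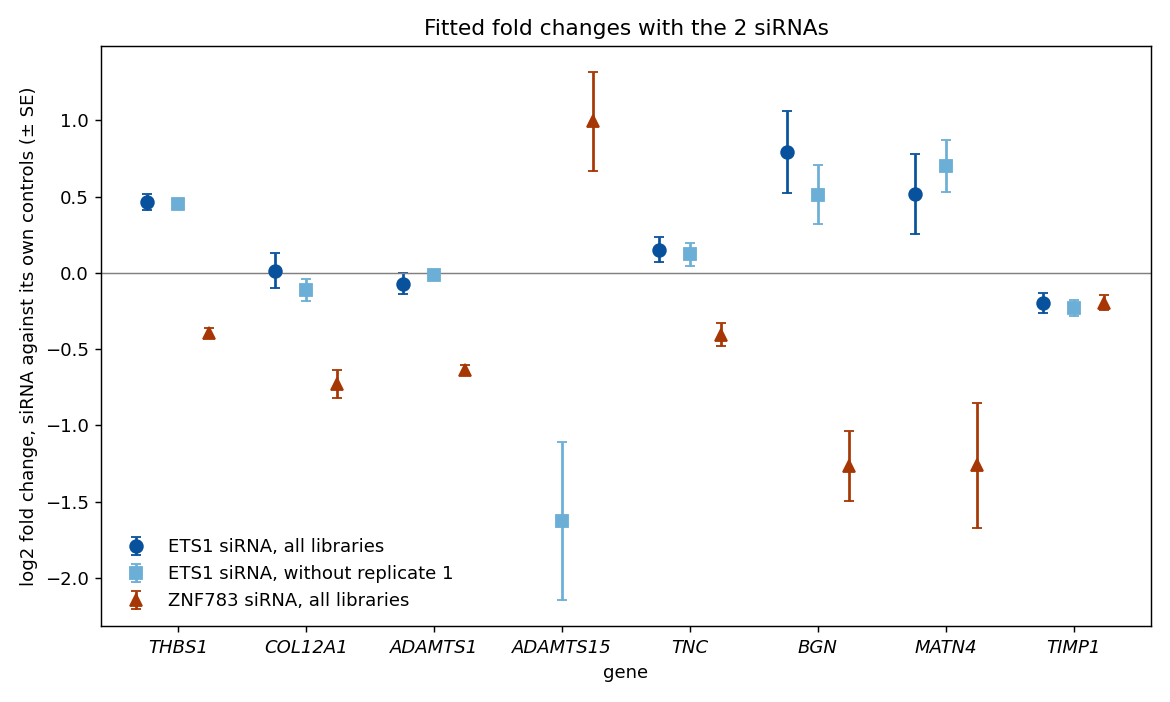
Log2 fold change (vertical axis, ± SE of the edgeR fit) of each gene with each siRNA against its own controls; PLAU is left out, and ADAMTS15 has no value with ETS1 siRNA over all libraries because it did not pass the expression filter. THBS1, TNC, BGN and MATN4 lie above 0 with ETS1 siRNA and below 0 with ZNF783 siRNA, and TIMP1 lies at -0.20 with both over all libraries.

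With ZNF783 siRNA, 8 of the 9 genes passed the expression filter. The siRNA and control libraries did not overlap for these 8, 7 lower and 1 higher, as for 38.2% of all 17630 genes tested (21.6% lower, 16.6% higher). With ETS1 siRNA, 7 genes passed the filter. Groups did not overlap for 4 of these 7, 3 higher and 1 lower, as for 35.2% of 19542 genes (17.6% higher, 17.7% lower). These contrasts took part in the choice of the genes, so nothing is read from the counts.

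The siRNA effects were also set against each other, as the ZNF783 effect minus the ETS1 effect on the log2 scale in a fit of all 12 libraries. The difference was -0.88 (SE 0.061) for THBS1, -0.76 (SE 0.14) for COL12A1, -0.58 (SE 0.076) for ADAMTS1 and -0.58 (SE 0.11) for TNC. It was -2.07 (SE 0.38) for BGN and -1.79 (SE 0.52) for MATN4. Without ETS1 siRNA replicate 1 the difference was -0.85 for THBS1, -0.62 for both COL12A1 and ADAMTS1, and -0.53 for TNC. For BGN it was then -1.78 (SE 0.30) and for MATN4 -1.97 (SE 0.43). ADAMTS15 differed the other way, by 2.93 (SE 0.65). The value was 2.61 (SE 0.60) without ETS1 siRNA replicate 1, the library with 0 counts of this gene, and 2.53 to 3.57 over all alternatives run. TIMP1 had a difference of -0.01 (SE 0.078), which changed sign under some other settings. Opposite shifts were among the reasons for the choice of the genes, so these differences are given as a description.

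The ZNF783 controls were also set against the ETS1 controls, both 22RV1 cells. Each control group took part in the choice of the genes: picking genes higher with ETS1 siRNA or lower with ZNF783 siRNA favours low ETS1 controls and high ZNF783 controls. The values are therefore a description without a test. Most members with more than a few counts were higher in the ZNF783 controls. THBS1 was 1.51-fold higher (log2 0.60, SE 0.034), at 131 ± 3.85 against 86.4 ± 2.37 CPM (SD, n = 3). TNC was 1.75-fold higher (log2 0.81, SE 0.074) and BGN 2.34-fold higher (log2 1.23, SE 0.20). TIMP1 was 1.55-fold higher (log2 0.63, SE 0.049), and ADAMTS1 1.18-fold higher (log2 0.23, SE 0.032). MATN4 was lower, at 55.2% of the ETS1 controls (log2 -0.86, SE 0.26). COL12A1, at 12.6 ± 0.607 and 12.9 ± 0.460 CPM, had a log2 difference of 0.03 (SE 0.075), and ADAMTS15 one of 0.71 (SE 0.39). Here too fold changes followed GC content, with a Spearman correlation of 0.48 across 10367 genes. With the GC and length correction THBS1 was 1.47-fold, ADAMTS1 1.19-fold, TNC 1.57-fold, BGN 1.97-fold and TIMP1 1.39-fold higher. MATN4 was then at 44.3% of the ETS1 controls, and the ADAMTS15 log2 difference was 0.47 (SE 0.39).

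The control groups did not overlap for 6 of the 8 members that passed the filter, 5 higher and 1 lower, as for 60.6% of 18727 genes (30.9% higher, 29.8% lower). Each control group belongs to its own experiment, so the experiment and anything else that set the groups apart cannot be told apart. The same control libraries enter the siRNA comparisons above, so these values and those are not independent. The baselines bear on how the siRNA levels read side by side. BGN with ZNF783 siRNA, at 0.779 to 1.43 CPM, spanned the range of the ETS1 controls, 0.992 to 1.32 CPM. THBS1 with ETS1 siRNA reached 118 to 121 CPM and stayed below the 127 to 135 CPM of the ZNF783 controls. TIMP1 with ZNF783 siRNA, at 36.1 to 37.6 CPM, remained above every library of the ETS1 experiment.

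**Figure D3:**
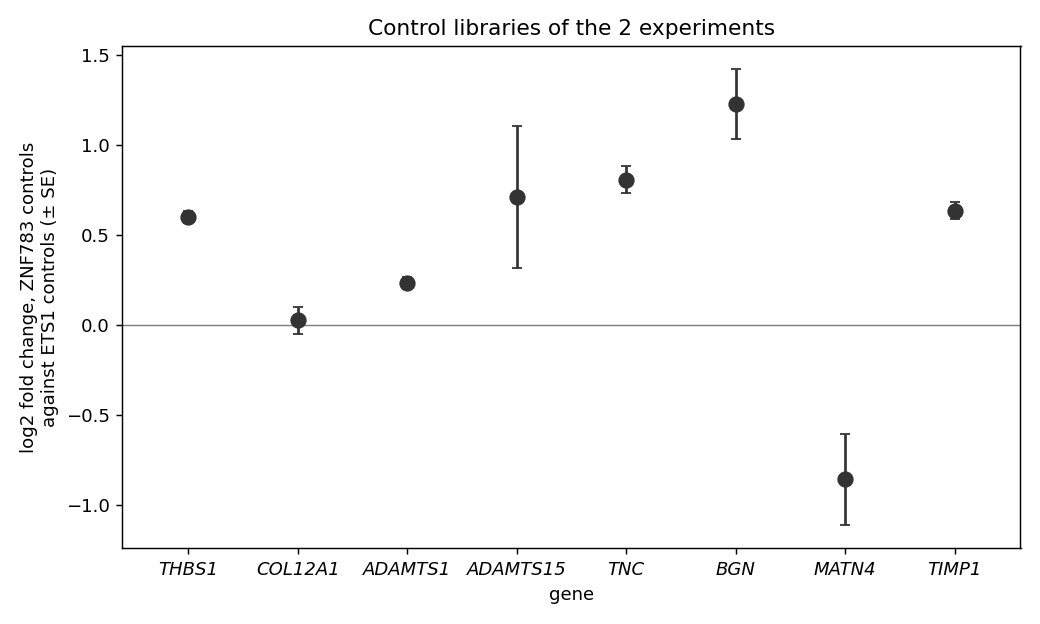
Log2 fold change (vertical axis, ± SE) of each gene in the 3 ZNF783 control libraries against the 3 ETS1 control libraries. THBS1, ADAMTS1, TNC, BGN and TIMP1 lie above 0, MATN4 lies below, and COL12A1 lies at 0.03.

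For members of at least 10 CPM, the genes with the most similar pattern over the 12 libraries were sought among 9092 genes, as the smallest root mean square difference of log2 CPM, each relative to the mean of its own control group. These are descriptions over 12 libraries that share depth and controls. BCHE (butyrylcholinesterase) and SLC6A6 (the taurine transporter) lay nearest to THBS1, at 0.095 and 0.099. HYOU1, a chaperone of the endoplasmic reticulum, and LPCAT4 lay nearest to TNC, at 0.065 and 0.078. MUC13, a membrane mucin, and CEND1 lay nearest to COL12A1, at 0.082 and 0.13. MFSD2A, a lipid transporter, and MISP lay nearest to ADAMTS1, at 0.063 and 0.075. VIPR1 and MEA1 lay nearest to TIMP1, at 0.026 and 0.033.

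The members were then set beside 253 other genes of the same families in 17 lists, from thrombospondins and collagens to matrix receptors. With ZNF783 siRNA, 54 of the 154 tested changed in edgeR at an adjusted p below 0.05, or 35.1%, against 25.1% of all genes. Of these 54, 48 fell (31.2% of those tested, against 13.8% of all genes) and 6 rose (3.9%, against 11.3%). The median log2 fold change was -0.12, against 0.002 over all genes tested. The plasminogen system, to which PLAU belongs, had 4 of 7 tested genes that fell and 0 that rose, among them SERPINE2, an inhibitor of urokinase, by 0.58 (SE 0.071) and ANXA2, a plasminogen-binding annexin, by 0.35 (SE 0.044) on the log2 scale. Of 17 laminins and basement membrane genes, 7 fell and 0 rose, including LAMB2 by 0.30 (SE 0.031) and NID1 by 0.41 (SE 0.065). Of 7 hyaluronan-binding and large proteoglycans, 4 fell and 0 rose, with versican (VCAN), a substrate of ADAMTS1, lower by 0.32 (SE 0.045) and CD44 by 0.25 (SE 0.040). Of 6 matricellular genes, SPOCK1 and SPOCK2 fell by 0.41 (SE 0.055) and 0.43 (SE 0.060), and FSTL1 rose by 0.40 (SE 0.070). Of 13 receptors, 7 fell, among them LRP1, which clears proteases, by 0.33 (SE 0.058) and SDC1 by 0.25 (SE 0.029).

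The closest families of the members were counted in the same way. The other thrombospondins (2 tested) and matrilins (1 tested) had 0 calls by edgeR's adjusted p, with 1 and 0 at an unadjusted p below 0.05, and 0 of the other 3 tenascins passed the expression filter. Of 9 other ADAMTS proteases ADAMTS7 fell by 0.92 (SE 0.26). Of the 2 genes tested in the list of TIMPs, TIMP2 and RECK, TIMP2 fell by 0.30 (SE 0.068). Of 27 collagens 7 fell and 0 rose (25.9%, against 25.1% of all genes), among them COL25A1 by 0.72 (SE 0.23) and COL1A1 by 0.23 (SE 0.062), and of 3 small leucine-rich proteoglycans TSKU fell by 0.18 (SE 0.041) and LUM by 0.26 (SE 0.080). The GC and length correction lowered the family count from 54 to 33 (4 rose, 29 fell), or 21.4%, against 19.5% of all genes. By direction, 18.8% of family genes then fell, against 10.6% of all genes, and 2.6% rose, against 8.9%. The family median moved from -0.12 to -0.06, against 0.003 over all genes. With the correction 1 collagen fell and 1 rose, and COL1A1 and TSKU lost their calls. It left falls in 4 laminin and basement membrane genes, 4 plasminogen genes, 3 large proteoglycans and 6 receptors. A fit of all 12 libraries left 16 (1 rose, 15 fell). LUM had an adjusted p of 0.0911 with DESeq2. Summed fibroblast markers, most of whose sum is COL1A1 and LUM counted above, stood at 36.3 to 39.7 CPM with ZNF783 siRNA against 43.0 to 46.2 CPM. In the ETS1 experiment they stood at 61.9 to 73.3 against 62.5 to 64.4 CPM. COL1A1 and LUM were the 2 of 9 such markers with a mean of at least 1 CPM over the 12 libraries, FAP had at most 2 counts in any library, and the part of other cell types in the results was not tested.

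**Figure D4:**
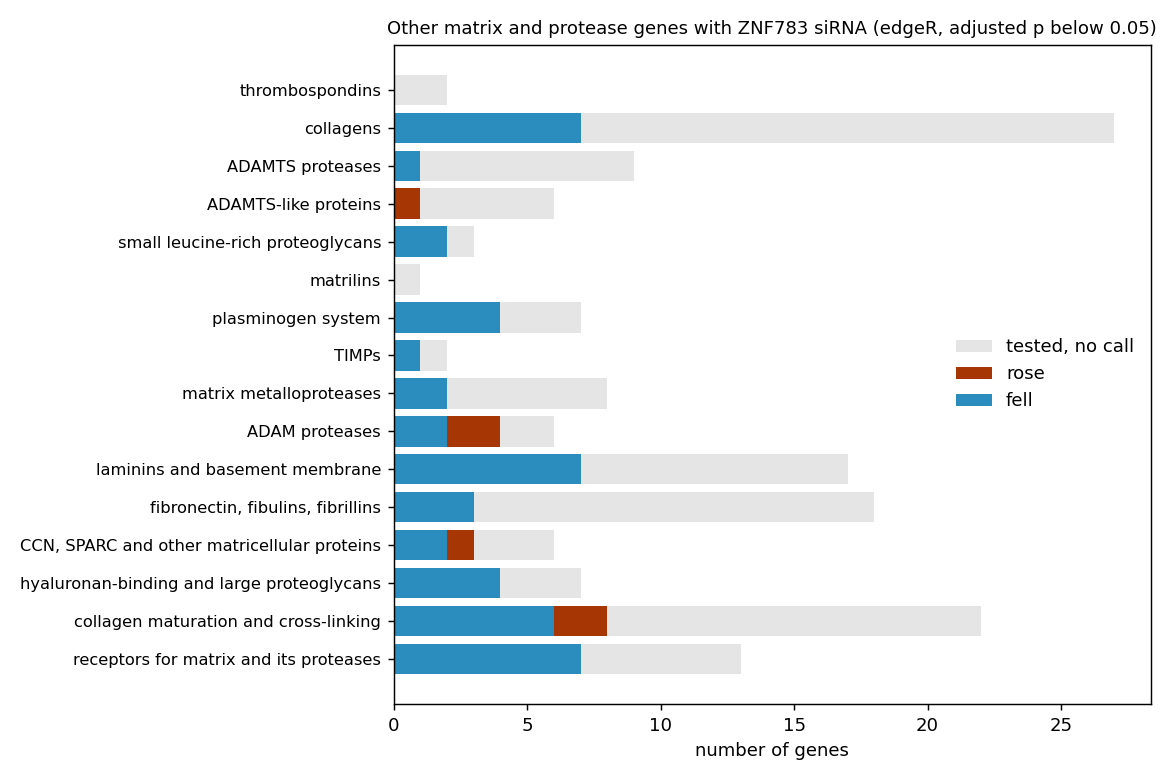
Number of other matrix and protease genes (horizontal axis) in each list that fell, rose or were tested without a call with ZNF783 siRNA against its controls, by edgeR at an adjusted p below 0.05. Of 154 genes tested, 48 fell and 6 rose, the falls spread over most lists.

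With ETS1 siRNA, 0 of 177 family genes passed the threshold in edgeR with all libraries, against 0.0461% of all genes. An unadjusted p below 0.05 was seen for 33 of them and for 18.1% of all genes. DESeq2 called 8, against 3.62% of all genes, and limma-voom 0, against 0.118%. The values with the smallest p included FBN2, a fibrillin, at log2 0.57 (SE 0.076), LAMC1, a laminin chain, at 0.30 (SE 0.058), and SDC3, a syndecan, at -0.38 (SE 0.060). Without ETS1 siRNA replicate 1, 38 of 181 passed (18 rose, 20 fell; 21.0%, against 23.0% of all genes), these 3 among them.

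The siRNA effects differed for 7 of 181 family genes in edgeR (3.87%, against 1.68% of 19594 genes), all with a lower ZNF783 effect. They were ANXA2 (log2 -0.61, SE 0.072), SERPINE2 (-0.54, SE 0.098), the laminin chains LAMC1 (-0.42, SE 0.061) and LAMB1 (-0.35, SE 0.077), fibronectin FN1 (-0.56, SE 0.11), FBN2 (-0.54, SE 0.11) and LTBP2 (-0.41, SE 0.095). Over 23 alternatives the calls of ANXA2 and LAMC1 held in every one. The call was lost in 6 for SERPINE2, in 10 for FN1, in 12 each for FBN2 and LAMB1 and in 17 for LTBP2. The count depended on single libraries. It was 34 of 186 without ETS1 siRNA replicate 1 (18.3%, against 13.7% of all genes), and 4 without ZNF783 control replicate 1. It was 3 without ETS1 control replicate 1 or 2, ZNF783 siRNA replicate 2 or 3 or ZNF783 control replicate 2, and 2 without ETS1 control replicate 3, ZNF783 siRNA replicate 1 or ZNF783 control replicate 3. Between the control groups, 113 of 168 family genes differed in edgeR (67 higher and 46 lower in the ZNF783 controls; 67.3%, against 55.5% of all genes), with SMOC1 at 26.1 ± 0.958 against 0.871 ± 0.0340 CPM and LUM at 16.1 ± 1.07 against 45.2 ± 1.42 CPM (SD, n = 3).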

How the data were processed

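RNA of 12 libraries was counted by the authors. They deposited 1 table of raw counts per knockdown; per the file headers they came from paired-end alignments counted over exons by gene with featureCounts 2.0.1 and a GRCh38 annotation of release 107, without a strand option. No source used here names the version of the aligner. Groups were taken from the labels. The members, lists and tests were chosen with earlier results of these data known. Each comparison was fitted over all genes with edgeR 4.0.16 (R 4.3.3): default expression filter, TMM scaling, robust quasi-likelihood test with group as the only term, Benjamini-Hochberg adjustment over all genes tested, threshold 0.05. The script was tested on simulated data. Levels are TMM-scaled CPM; lengths, GC content and exon positions are from GENCODE release 29. All members were named; from each list, up to 4 genes of at least 1 CPM with the smallest p could be named, and those that passed or helped describe a list were. Alternatives were DESeq2 1.42.0, limma-voom (limma 3.58.1), other scalings and filters, a replicate block, a GC and length correction, a fit of all 12 libraries, and leaving out each library. Floors cover counting error only. Some of the cell type markers checked are not reported here.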

Additional observations from a re-analysis of the deposited data

Results flagged for a closer look

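THBS1, TNC and BGN were higher in all 3 ETS1 siRNA libraries and lower in all 3 ZNF783 siRNA libraries than in the controls of their experiment. The log2 differences between the siRNA effects were -0.88, -0.58 and -2.07, and -0.85, -0.53 and -1.78 without ETS1 siRNA replicate 1. ADAMTS15 showed the opposite order, with a difference of 2.93 (2.61 without ETS1 siRNA replicate 1) from 0 to 23 counts per library. Over all genes tested, 17.6% were higher and 17.7% lower in all ETS1 siRNA libraries than in their controls. With ZNF783 siRNA 16.6% were higher and 21.6% lower in all, and the share with opposite shifts was not counted. The TNC step with ETS1 siRNA was small (log2 0.15, SE 0.081). The members were chosen partly for opposite shifts, so their differences were not tested. Among the other family genes, the difference between the siRNA effects itself passed the edgeR test for ANXA2 (-0.61), LAMC1 (-0.42), SERPINE2 (-0.54), FN1 (-0.56), FBN2 (-0.54), LAMB1 (-0.35) and LTBP2 (-0.41), with edgeR adjusted p of 0.00147, 0.00461, 0.0146, 0.0231, 0.0293, 0.0354 and 0.0487. Over 23 alternatives the ANXA2 and LAMC1 calls held in every one, while the LTBP2 call was lost in 17. Between 2 and 34 family genes passed when single libraries were left out.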

How the results depend on the processing

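The family count with ETS1 siRNA, 0 with all libraries, was 4 without an expression filter, 8 with DESeq2, 1 with the GC and length correction and 21 in the fit of all 12 libraries; leaving out single libraries gave 0 to 38, and leaving out ETS1 siRNA replicate 1 together with the GC and length correction, an alternative chosen after seeing the data, gave 42. The count with ZNF783 siRNA, 54, was 33 with the GC and length correction, 32 with that correction and the replicate block, and 16 in the fit of all 12 libraries; leaving out single libraries gave 45 to 54. The count for the difference between the siRNA effects, 7, was 12 without the filter, 11 with DESeq2, 11 with the GC and length correction, 2 with the replicate block, 4 with both, 2 to 34 without single libraries, and 38 without ETS1 siRNA replicate 1 and with the correction. The family count between the controls, 113, stayed within 1.5 times under every alternative run. Whether the replicate numbers pair the libraries cannot be settled with 3 libraries per group. Correlations of deviations between libraries of the same number were 0.095, -0.24 and 0.31 in the ETS1 experiment. In the ZNF783 experiment they were -0.086, -0.047 and -0.061. In these experiments 1 and 0 of 3 siRNA libraries correlated best with the control of their own number. With the replicate block the family counts were 0 with ETS1 siRNA, 57 with ZNF783 siRNA, 2 for the difference and 111 between the controls.

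Values near 0 changed sign. The TIMP1 difference between the siRNA effects, -0.01, was 0.00834 without the filter, -0.0406 to 0.0342 when single libraries were left out (above 0 without ETS1 siRNA replicate 1, ETS1 control replicate 2 or ZNF783 control replicate 1), and 0.0363 without ETS1 siRNA replicate 1 and with the correction. The COL12A1 difference between the controls, 0.03, was -0.0201 without the filter, -0.00443 with the GC and length correction, -0.00359 with the correction and the replicate block, and -0.00641 to 0.0616 when single libraries were left out (below 0 without ETS1 control replicate 1 or ZNF783 control replicate 2). The causes were not tested. THBS1 lay between 0.43 and 0.49 with ETS1 siRNA and between -0.41 and -0.37 with ZNF783 siRNA over all alternatives run. Depth limits ADAMTS15, MATN4 and PLAU most.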
